A study of Mus musculus with 24 samples.

Results

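The 9 nicotinic acetylcholine receptor subunit genes Chrna3, Chrna4, Chrna5, Chrna6, Chrna7, Chrna9, Chrnb2, Chrnb3 and Chrnb4 were examined in sorted sensory neurons of control and Nav-Tsc2 mice. They were taken as the count rows whose Ensembl identifier carries one of these symbols, and all 9 had a row among the 47643 gene rows. In counts summed per mouse, Chrna3, Chrnb4 and Chrna7 were lower and Chrna6 was higher in Nav-Tsc2 mice. In a fit of single libraries with mouse as random effect, Chrna3 and Chrnb4 were not called. Chrna4, Chrnb2, Chrnb3 and Chrna5 did not pass the test, and Chrna9 had too few counts to be tested.

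The data were 24 libraries (4 control mice and 4 Nav-Tsc2 mice, with 3 libraries per mouse), each made from 100 GFP-positive cells sorted from L4 dorsal root ganglia (DRG). All mice carried Nav1.8-Cre and the Rosa26-ZsGreen reporter. Control mice were Tsc2 flox/+ and Nav-Tsc2 mice were Tsc2 flox/null. All mice were of mixed C57BL/6 and AJ strain, were 8 to 9 weeks old, and had received a sciatic nerve crush 3 d before the ganglia of the uninjured side were taken. In both genotypes replicates 1 and 2 were male and replicates 3 and 4 female. Cre was driven from Nav1.8, which is expressed in most C-fiber nociceptors and in some myelinated neurons, so the control neurons also lose 1 Tsc2 allele, and the null allele of Nav-Tsc2 mice is present in every cell of the animal.

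Nicotinic receptors are pentameric cation channels that open when acetylcholine or nicotine binds. The α subunits contribute the main face of the binding site, and α7 and α9 can form channels without a β subunit. In sensory and autonomic ganglia α3 with β4 forms the classical ganglionic receptor, while α6 needs β2 or β4 as a partner and is known in DRG neurons for its interaction with P2X receptors in pain sensitivity. The subunit α5 and the subunit β3 are accessory: they join a channel but do not form its binding site in the usual way.

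The libraries held 8339220 to 34228180 counts on genes, and the mice, after summing, 47959617 to 61290435. The reads were amplified without molecular identifiers, so the spread between mice, not counting error, is the error given. A median of 17566 genes was detected in control and 19393 in Nav-Tsc2 libraries. Tsc2 itself had 13.4, 24.6, 21.5 and 24.1 normalized CPM (counts scaled to the same effective library size) in control replicates 1 to 4 and 8.70, 8.51, 7.30 and 11.0 CPM in Nav-Tsc2 replicates 1 to 4. Its log2 fold change (log2FC, Nav-Tsc2 against control) was -1.24 (standard error, SE, 0.22; edgeR adjusted p = 0.00400), and 7.20% of its exon sequence is shared with Pkd1 on the other strand. The nociceptor channels Scn10a (670 and 608 CPM) and Scn9a (642 and 551 CPM) had high means in control and Nav-Tsc2 mice and did not pass the test.

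Altogether 5 of the subunits lie in 2 gene clusters of GRCm38. Chrna5 (chr9:54980880-55007779, plus strand), Chrna3 (chr9:55010111-55026562, minus strand) and Chrnb4 (chr9:55028154-55048779, minus strand) share 67.9 kb of chromosome 9. Chrnb3 (chr8:27368711-27399730, plus strand) and Chrna6 (chr8:27403212-27413944, minus strand) share 45.2 kb of chromosome 8. The other members lie alone: Chrna7 (chr7:63098692-63212569, minus strand), Chrna4 (chr2:181018380-181043546, minus strand), Chrnb2 (chr3:89746195-89764632, minus strand) and Chrna9 (chr5:65934921-65977326, plus strand). Only Chrnb2, among the 9 members, had exon sequence in common with another gene: 16.3% is shared with Adar on the other strand.

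Promoter sequence is shown for the genes called lower, because they moved in the same direction. RefSeq windows (GRCm38.p6) of the 250 bases before the annotated start were searched on both strands for GGGCGG (GC box), CACGTG (E-box) and TGACGTCA (cyclic AMP response element), and matches are in capitals. The window of Chrna3 is chr9:55026563-55026812 on the minus strand. Of the Chrna7 window, the 207 bases outside the GENCODE gene are printed, chr7:63212570-63212776 on the minus strand.
Chrna3: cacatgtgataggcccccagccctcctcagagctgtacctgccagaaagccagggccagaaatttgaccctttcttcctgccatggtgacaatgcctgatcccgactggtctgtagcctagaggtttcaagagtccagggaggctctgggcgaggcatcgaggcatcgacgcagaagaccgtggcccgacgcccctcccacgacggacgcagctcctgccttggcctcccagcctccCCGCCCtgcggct
Chrna7: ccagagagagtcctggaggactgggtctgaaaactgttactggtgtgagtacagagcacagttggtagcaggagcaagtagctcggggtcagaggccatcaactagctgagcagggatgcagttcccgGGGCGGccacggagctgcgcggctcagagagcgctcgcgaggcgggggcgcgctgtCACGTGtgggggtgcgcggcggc

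The Chrna3 window held 1 GC box on the other strand, beginning 13 bases before the start. The Chrna7 window held 1 GC box, 122 bases before the start, and 1 E-box, 66 bases before it. The window of Chrnb4 held none of these letters; 235 of its 250 bases lie within the GENCODE gene, so it is not printed. Of all 32851 RefSeq windows of this length, 32.7% held a GC box, 6.02% an E-box and 1.55% a cyclic AMP response element, and the 3 genes called lower had no motif of this search common to all 3.

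In control mice Chrna6 was the most abundant subunit per length of transcript. Normalized CPM per kb of exon averaged 23.4 ± 5.54 (SD, n = 4 mice) for Chrna6, 8.78 ± 3.19 for Chrnb4, 5.78 ± 2.32 for Chrna3, 3.57 ± 0.933 for Chrnb2 and 1.73 ± 1.02 for Chrnb3. Below these came Chrna7 with 0.903 ± 0.712, Chrna4 with 0.866 ± 0.546 and Chrna5 with 0.144 ± 0.271 CPM per kb, and Chrna9 had no count. Chrna6 was above every other member in each of the 4 control mice without overlap of ranges, but each later pair of neighbors in this order overlapped. Chrna7 exceeded Chrna4 in 2 of 4 mice, so their order is not fixed.

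In Nav-Tsc2 mice the order was different below Chrna6. Chrna6 averaged 53.3 ± 8.74 CPM per kb and Chrnb2 4.67 ± 0.512, and neither of their ranges overlapped that of the next subunit. Chrna4 followed with 1.76 ± 0.779, then Chrna3 with 1.21 ± 0.861, Chrnb3 with 1.12 ± 0.534 and Chrnb4 with 0.597 ± 0.390 CPM per kb. Chrna5, Chrna7 and Chrna9 averaged 0.0589, 0.0525 and 0.0170 CPM per kb. Chrna3 and Chrnb3 were not ordered, as Chrna3 was the higher in 2 of 4 mice.

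Added over the 9 members, the level was 43.9 to 46.6 CPM per kb in control and 50.6 to 71.3 in Nav-Tsc2 mice. Of this sum, the chromosome 9 cluster contributed 20.3% to 45.1% in control mice and 0.688% to 4.48% in Nav-Tsc2 mice. Chrna6 alone contributed 38.5% to 66.4% in control and 81.4% to 87.8% in Nav-Tsc2 mice. Chrnb2 contributed 6.03% to 9.73% and 5.90% to 8.98%, ranges that overlap. Neither the sum nor these shares was tested.

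**Figure D1:**
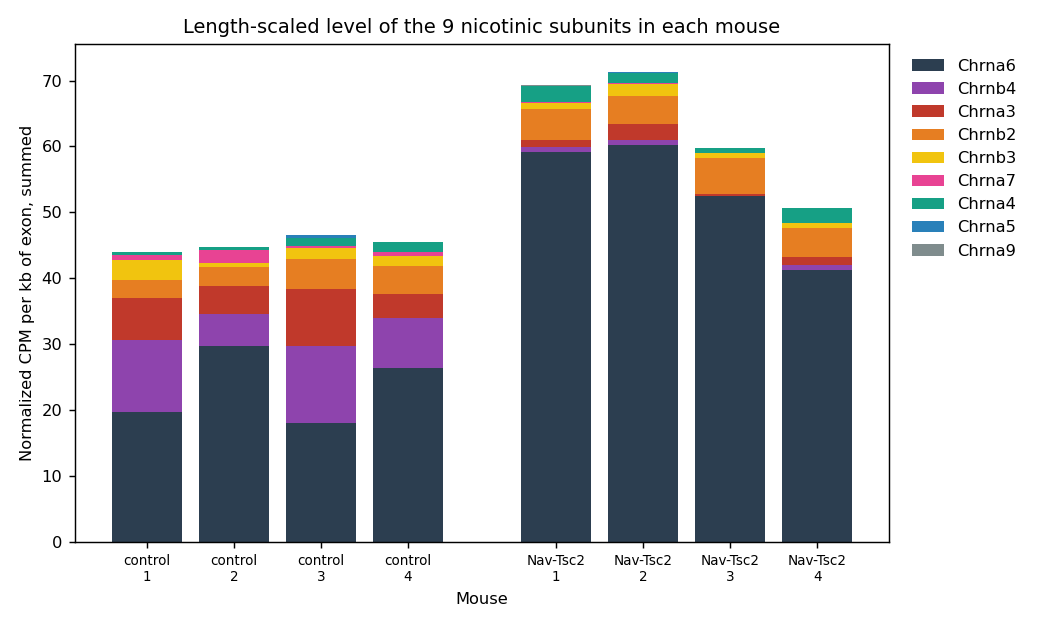
Normalized CPM per kb of exon of the 9 nicotinic subunits, stacked for each mouse (4 control on the left, 4 Nav-Tsc2 on the right). Chrna6 makes up 38.5% to 66.4% of the control bars and 81.4% to 87.8% of the Nav-Tsc2 bars, and the Chrnb4 and Chrna3 segments are small in the Nav-Tsc2 mice.

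Between genotypes, 8 of the 9 members could be tested. In the edgeR quasi-likelihood test, with thresholds of 0.05 for the adjusted p and 0.5 for the size of log2FC, 3 were called lower, where the background among the 17178 genes tested was 8.00%, and 1 was called higher, where the background was 9.12%. These 4 genes, and none of the other members tested, had no overlap between the 4 mice of each genotype, against 12.3% of all genes without overlap and lower and 14.6% without overlap and higher. The median log2FC of the 8 members was -0.95, and that of all genes tested was 0.01.

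**Figure D2:**
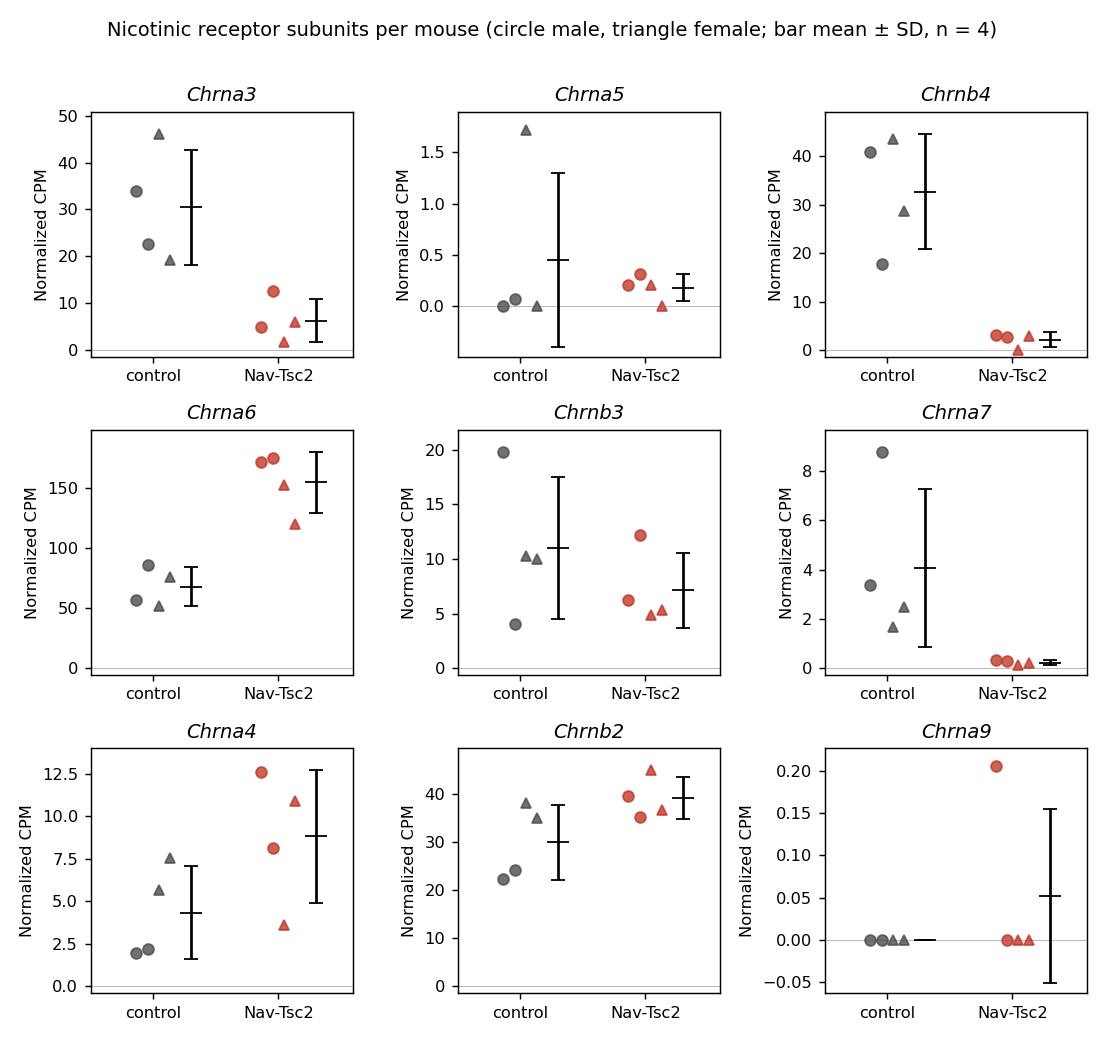
Normalized CPM of each subunit in each mouse (circles male, triangles female), with the mean and SD of 4 mice beside each group, on a linear axis that differs between panels. The genotypes do not overlap for Chrna3, Chrnb4, Chrna7 and Chrna6, and overlap for the other subunits.

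Chrna3 encodes the α3 subunit of the ganglionic receptor. It had 33.9, 22.6, 46.1 and 19.1 CPM in control replicates 1 to 4, from 2002, 1195, 2549 and 953 counts. It had 5.02, 12.5, 1.71 and 6.09 CPM in Nav-Tsc2 replicates 1 to 4, from 244, 709, 105 and 360 counts. Every Nav-Tsc2 mouse was below every control mouse, and the closest were Nav-Tsc2 replicate 2 and control replicate 4. The mean fell from 30.5 ± 12.2 to 6.34 ± 4.53 CPM (SD, n = 4 per genotype), giving a log2FC of -2.26 (SE 0.53, edgeR adjusted p = 0.0144). Without Nav-Tsc2 replicate 1 the adjusted p was 0.0508 (edgeR) and the call was lost. In a fit of single libraries with mouse as random effect, the log2FC was -0.71 (limma adjusted p = 0.715). In bulk libraries such as these, fewer cells that express a gene and less RNA per cell cannot be told apart.

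Chrnb4 encodes β4, the partner of α3 in that receptor. It had 40.8, 17.8, 43.6 and 28.6 CPM in control replicates 1 to 4, and 3.17, 2.65, 0.0653 and 3.00 CPM in Nav-Tsc2 replicates 1 to 4. Nav-Tsc2 replicate 3 had 4 counts of Chrnb4 in all, whereas the other Nav-Tsc2 mice had 150 to 177 and the control mice 939 to 2412. The mean fell from 32.7 ± 11.9 to 2.22 ± 1.45 CPM (SD, n = 4 per genotype), giving a log2FC of -3.88 (SE 0.77, edgeR adjusted p = 0.00677). In the fit of single libraries, the log2FC was -4.00, but the adjusted p was 0.214 (limma).

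How these mouse totals were built up from the single sorts of 100 cells is shown by the libraries. In control mice, 5 of 12 libraries exceeded 10 CPM of Chrna3, and these ranged up to 113 CPM, while 4 libraries were under 1 CPM. In Nav-Tsc2 mice, 10 of 12 libraries exceeded 1 CPM of Chrna3, against 8 of 12 in control mice. The median over libraries was 6.005 CPM in control and 4.345 CPM in Nav-Tsc2 mice, so the typical library differed less than the mouse means. One library held 89.5%, 96.3%, 99.7% and 58.0% of the Chrna3 counts of control replicates 1 to 4. The 3 libraries of control replicate 1, for example, had 113, 9.89 and 0.139 CPM.

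All 5 control libraries over 10 CPM of Chrna3 also exceeded 10 CPM of Chrnb4, 2 further libraries did so for Chrnb4 alone, and 5 did so for neither. Control replicates 2 and 3 had 99.8% and 99.9% of their Chrnb4 counts in 1 library, the same library that held most of their Chrna3. Among the Nav-Tsc2 libraries 4 of 12 exceeded 10 CPM of Chrna3, with a highest value of 15.8 CPM, and 0 of 12 did for Chrnb4, with a highest value of 7.67 CPM. Of those 4 libraries 3 were from Nav-Tsc2 replicate 2, which had 15.8, 10.7 and 12.1 CPM of Chrna3 but 0.339, 0.571 and 7.42 CPM of Chrnb4.

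**Figure D3:**
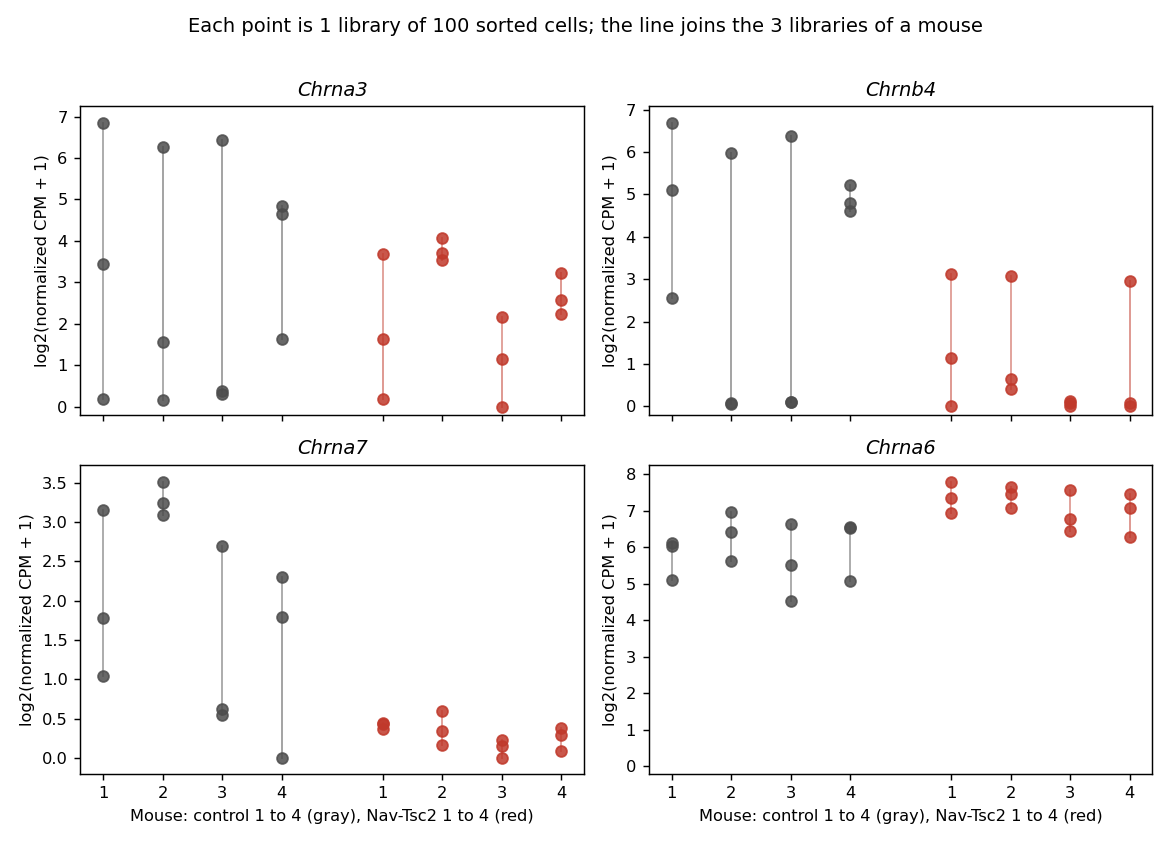
Level of Chrna3, Chrnb4, Chrna7 and Chrna6 in each library of 100 sorted cells, as log2(normalized CPM + 1); a line joins the 3 libraries of a mouse, with control mice in gray and Nav-Tsc2 mice in red. Within control replicate 3, Chrna3 ranges from 0.234 to 86.0 CPM and Chrnb4 from 0.0774 to 81.6 CPM, whereas Chrna6 is at 22.1 CPM or more in all 24 libraries.

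Chrna3 and Chrnb4 went together from library to library. After the genotype mean was subtracted, Pearson's r of log2(CPM + 1) over the 24 libraries was 0.826 for this pair (0.888 over the 12 control and 0.581 over the 12 Nav-Tsc2 libraries). It was the highest of the 28 pairs of members, whose median was -0.03. Libraries of a mouse share the animal but not the depth, so these values are a description. Chrna3 and Chrna5, the third gene of the cluster, had an r of 0.391.

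Among the 8450 other genes with a mean of at least 10 CPM, Chrnb4 was the gene most like Chrna3, and Chrna3 the gene most like Chrnb4. The second for Chrna3 was Fam13a (r = 0.733), which did not pass the test between genotypes (log2FC -0.26, edgeR adjusted p = 0.340). The second for Chrnb4 was Cpne4, a copine (r = 0.766), which fell from a mean of 130.7 to 40.9 CPM (log2FC -1.68, edgeR adjusted p = 6.61e-05). Here and below, the genes most like a member were picked as the highest r of 8450 or 8451, over 24 libraries from 8 mice. No background for such a highest r was computed, so these genes are only a description. Of the 40 cell type markers at that level, Kit, a receptor tyrosine kinase of peptidergic nociceptors, had the highest r with both Chrna3 (0.399) and Chrnb4 (0.553). The second was the neuron marker Rbfox3 for Chrna3 (0.379) and the satellite and Schwann cell marker S100b for Chrnb4 (0.429).

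The ratio of Chrnb4 to Chrna3 did not overlap between the genotypes. Per kb of exon it was 1.70, 1.11, 1.34 and 2.12 in control replicates 1 to 4 and 0.893, 0.299, 0.0539 and 0.695 in Nav-Tsc2 replicates 1 to 4. Chrnb4 was thus above Chrna3 in 4 of 4 control and in 0 of 4 Nav-Tsc2 mice. The ratio of Chrnb4 to Chrnb2, the other principal β subunit, was 1.65 to 4.13 in control and 0.00327 to 0.184 in Nav-Tsc2 mice. These ratios were computed after the values were seen and were not tested.

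**Figure D4:**
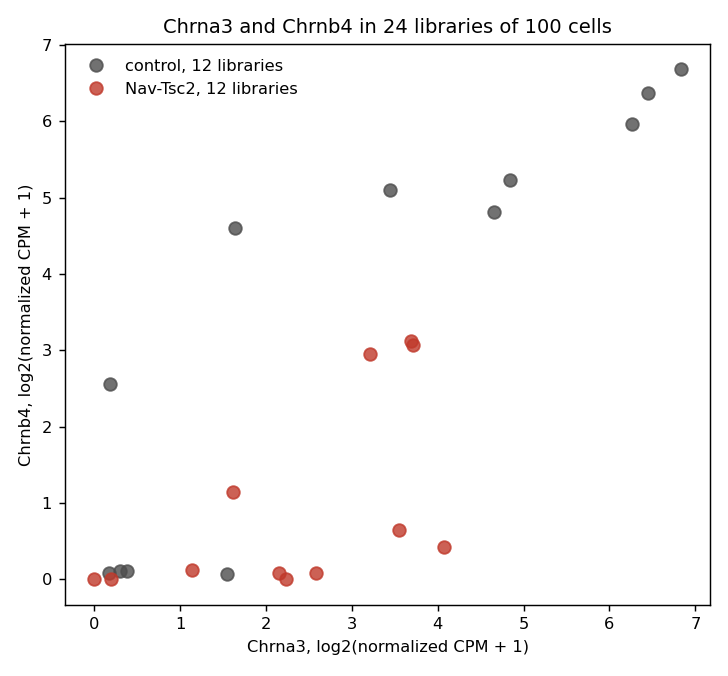
Chrna3 against Chrnb4 in each of the 24 libraries, both as log2(normalized CPM + 1), with control libraries in gray and Nav-Tsc2 libraries in red. The 5 control libraries over 10 CPM of Chrna3 also exceed 10 CPM of Chrnb4, and no Nav-Tsc2 library reaches 10 CPM of Chrnb4.

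Chrna5, which encodes the accessory α5 subunit, had few counts. The control mice had 0, 4, 95 and 0 counts and the Nav-Tsc2 mice 10, 18, 13 and 0. All 95 counts of control replicate 3 lay in 1 library, the library that held 99.7% of its Chrna3. The log2FC was -1.28 (SE 1.68, edgeR adjusted p = 0.651), and without control replicate 3 it was 2.76 (adjusted p = 0.258), so no direction is given for this gene.

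None of the 4 genes next to the chromosome 9 cluster was called. On the side of Chrna5, Psma4, a proteasome subunit 22.9 kb away, had a log2FC of -0.15 (edgeR adjusted p = 0.210), and AY074887 had about 0.2 CPM in both genotypes and a log2FC of -0.03. On the side of Chrnb4, Ube2q2, a ubiquitin-conjugating enzyme gene 100.1 kb away, had 63.9 to 70.8 CPM in control and 41.5 to 53.2 CPM in Nav-Tsc2 mice. These groups did not overlap, and the adjusted p was 0.0120 (edgeR), but its log2FC of -0.45 did not reach the threshold of -0.5; with libraries weighted equally it was -0.52 and was called. Fbxo22, an F-box protein gene, had a log2FC of -0.28 (edgeR adjusted p = 0.266).

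Chrna7 encodes α7, which assembles into homomeric channels that conduct calcium. It had 3.37, 8.77, 1.66 and 2.47 CPM in control replicates 1 to 4, from 199, 463, 92 and 123 counts. It had 0.329, 0.283, 0.131 and 0.203 CPM in Nav-Tsc2 replicates 1 to 4, from 16, 16, 8 and 12 counts. The lowest control mouse (1.66 CPM) was above the highest Nav-Tsc2 mouse (0.329 CPM). Chrna7 fell from a mean of 4.07 ± 3.21 to 0.237 ± 0.0877 CPM (SD, n = 4 per genotype), giving a log2FC of -4.10 (SE 0.63, edgeR adjusted p = 0.00195). The call was kept in the 15 other fits that gave it a value.

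Chrna7 was spread differently over libraries. Of the 12 control libraries 9 exceeded 1 CPM and 1 exceeded 10 CPM, whereas 0 of the 12 Nav-Tsc2 libraries exceeded 1 CPM and the highest had 0.509 CPM. The 3 libraries of control replicate 2 were alike, with 10.4, 7.48 and 8.43 CPM, and the 3 of control replicate 4 were not, with 2.46, 0 and 3.94 CPM. Sord, which encodes sorbitol dehydrogenase (r = 0.816), and Slc35d2, a nucleotide sugar transporter gene (r = 0.812), were the genes most like Chrna7 over the 24 libraries. Neither passed the test between genotypes, with log2FC of -0.42 and -0.74. Among the markers, its highest r was with Tubb3 (0.713) and the fibroblast marker Dcn (0.683), and its lowest with P2rx3 (-0.55). Chrna7 and Chrnb2 had the lowest r of any pair of members, -0.57, which was -0.68 over the control libraries and 0.155 over the Nav-Tsc2 libraries.

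Chrna6 encodes α6 and was the only member called higher. It had 57.1, 86.3, 52.1 and 76.4 CPM in control replicates 1 to 4, and 172, 175, 153 and 119.8 CPM in Nav-Tsc2 replicates 1 to 4. All Nav-Tsc2 mice were above all control mice. The mean rose from 68.0 ± 16.1 to 154.8 ± 25.4 CPM (SD, n = 4 per genotype), giving a log2FC of 1.19 (SE 0.18, edgeR adjusted p = 0.00187). It was called higher in all 16 other fits, with log2FC of 1.07 to 1.32.

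Unlike the ganglionic subunits, Chrna6 exceeded 10 CPM in all 24 libraries. Control libraries ranged from 22.1 to 124.9 CPM and Nav-Tsc2 libraries from 77.0 to 219 CPM. Its level over libraries was most like that of Vps13a, a lipid transfer protein gene (r = 0.814), and of Slc4a4, a sodium bicarbonate cotransporter gene (r = 0.774); neither passed the test between genotypes. Osmr, a receptor subunit of itch neurons, had the highest r with Chrna6 among the markers (0.582), followed by the peptidergic nociceptor marker Adcyap1 (0.5405).

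Chrnb3, the neighbor of Chrna6 and an accessory subunit that often joins it, did not pass the test. It had 19.8, 4.07, 10.2 and 9.98 CPM in control and 6.21, 12.2, 4.83 and 5.32 CPM in Nav-Tsc2 replicates 1 to 4. The genotypes overlapped, and the log2FC was -0.63 (SE 0.46, edgeR adjusted p = 0.381). In the fit of single libraries it was 0.73 (limma adjusted p = 0.574), and with libraries weighted equally it was -0.83 (edgeR adjusted p = 0.2205). Over libraries Chrna6 and Chrnb3 had an r of 0.209. Among the markers Chrnb3 had its highest r with Apoe of satellite cells (0.569), followed by the neuron marker Uchl1 (0.443). The ratio of Chrna6 to Chrnb3 per kb was 6.33, 46.5, 11.2 and 16.8 in control and 60.6, 31.6, 69.2 and 49.4 in Nav-Tsc2 replicates 1 to 4, which overlap. Flot1, a flotillin gene (r = 0.752), and Ndor1 (r = 0.725) were the genes most like Chrnb3; Flot1 fell by 0.70 on the log2 scale (edgeR adjusted p = 0.000762), and Ndor1 had a log2FC of 0.11 (edgeR adjusted p = 0.750).

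Around the chromosome 8 cluster, Tex24 had no count and Gm45861 had no row in the count tables used here. Eif4ebp1, which encodes the mTORC1 substrate 4E-BP1 and lies 92.0 kb from the cluster, had 6.25, 4.32, 3.38 and 3.23 CPM in control and 9.44, 11.5, 7.55 and 6.36 CPM in Nav-Tsc2 replicates 1 to 4. The groups did not overlap, though Nav-Tsc2 replicate 4 was only just above control replicate 1. Its log2FC was 1.02 (edgeR adjusted p = 0.0341). That call was lost when control 2, 3 or 4 or Nav-Tsc2 mouse 1, 2 or 3 was left out, where the adjusted p was 0.0555 to 0.112 (edgeR). Poteg had 3 counts in the control mice together and 30, 27, 15 and 27 in the Nav-Tsc2 mice (log2FC 4.82, edgeR adjusted p = 0.0146). Its call was lost with the replicate block (adjusted p = 0.0535) and without Nav-Tsc2 replicate 1 (adjusted p = 0.0509).

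Chrna4 and Chrnb2 encode α4 and β2, which together form the most abundant nicotinic receptor of the brain. Chrna4 had 1.95, 2.20, 5.68 and 7.57 CPM in control and 12.6, 8.14, 3.64 and 10.9 CPM in Nav-Tsc2 replicates 1 to 4. The groups overlapped through Nav-Tsc2 replicate 3. The log2FC was 1.02 (SE 0.51, edgeR adjusted p = 0.197), and Chrna4 was called in none of the 16 other fits.

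Chrnb2 had 22.2, 24.3, 38.0 and 35.1 CPM in control and 39.6, 35.2, 45.0 and 36.7 CPM in Nav-Tsc2 replicates 1 to 4. The male control mice were below all other mice; of the female control mice, replicate 4 lay just under the lowest Nav-Tsc2 mouse and replicate 3 within the Nav-Tsc2 range. Its log2FC was 0.39 (SE 0.18, edgeR adjusted p = 0.173). In the fit of single libraries the adjusted p was 0.0196 (limma), with a log2FC of 0.43 that was under the threshold of 0.5. Chrnb2 exceeded 10 CPM in all 24 libraries, and its coefficient of variation over libraries, 28.6% in control and 14.9% in Nav-Tsc2 mice, was below those of Chrna6 (47.3% and 30.6%).

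Over libraries, Chrna4 and Chrnb2 had an r of 0.488, the second highest of the 28 pairs. Chrna4 was most like Sept3, a septin gene (r = 0.742), and Mcam, a cell adhesion molecule gene (r = 0.736). Of these Sept3 rose by 0.56 on the log2 scale (edgeR adjusted p = 0.0137), and Mcam had a log2FC of 0.45 (edgeR adjusted p = 0.150). Chrnb2 was most like Mboat7, a lysophospholipid acyltransferase gene (r = 0.812), and Ids, which encodes the lysosomal iduronate sulfatase (r = 0.784). Both rose, by 0.74 and 0.68 on the log2 scale (edgeR adjusted p = 0.0351 and 0.0463). Among the markers, Chrna4 had its highest r with P2ry1 (0.678) and Th (0.535) of low-threshold C-fibers, and Chrnb2 with Mrgprd (0.634) and Lpar3 (0.590) of nonpeptidergic nociceptors.

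Chrna9 encodes α9, best known from cochlear hair cells. Its 10 counts all lay in 1 library of Nav-Tsc2 replicate 1, and the other 23 libraries had 0 counts. A floor of 3 counts over the control mice, which takes no account of amplification, would be 0.0138 CPM.

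Male and female mice were compared by the interaction of genotype and sex, with 2 mice per sex and genotype. Of the 17178 genes tested 1 was called (0.00582%), and none of the 8 members was; their smallest adjusted p was 0.4385 (edgeR), with 1 member, Chrna4, at an unadjusted p under 0.05 (p = 0.0191 from edgeR). The male groups of Chrna4 did not overlap, at 1.95 and 2.20 CPM against 12.6 and 8.14 CPM, and the female groups did, at 5.68 and 7.57 CPM against 3.64 and 10.9 CPM. Without the low-count filter 30194 genes were tested, and 618 of these were called. In that fit the interaction passed for Chrna4 (edgeR adjusted p = 0.0381) and for Chrna3 (adjusted p = 0.0278). With DESeq2 0 members and 376 genes were called, and 1 member was at an unadjusted p under 0.05. The number of genes that DESeq2 tested for the interaction was not kept, so no share is given.

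Another 7 nicotinic subunits, most of which belong to the muscle receptor, were examined, and 4 were tested. Of these, 1 was called, which was lower, against 8.00% of all genes tested called lower and 9.12% called higher. Their median log2FC was 0.20. Chrna10, whose α10 product pairs with α9, had 8.85, 4.49, 1.19 and 1.95 CPM in control and 0, 0.0177, 0.163 and 0 CPM in Nav-Tsc2 replicates 1 to 4. Those values came from 66 to 522 counts in control mice and from 0, 1, 10 and 0 counts in Nav-Tsc2 mice. The log2FC was -6.39 (SE 1.19, edgeR adjusted p = 0.00510). Of its exon sequence 39.0% is shared with Art1 on the other strand, and whether counting used strand is not given in the sources used here. The muscle subunits Chrna1, Chrnb1 and Chrne averaged 0.412 to 1.84 CPM and were not called, and Chrna2, Chrnd and Chrng had too few counts for the test, at most 30 in any mouse. Chrng, with 0 counts in the control mice and 10, 4, 1 and 30 in Nav-Tsc2 replicates 1 to 4, was called higher by DESeq2 (adjusted p = 0.0185) and by edgeR without the low-count filter (adjusted p = 0.0472).

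**Figure D5:**
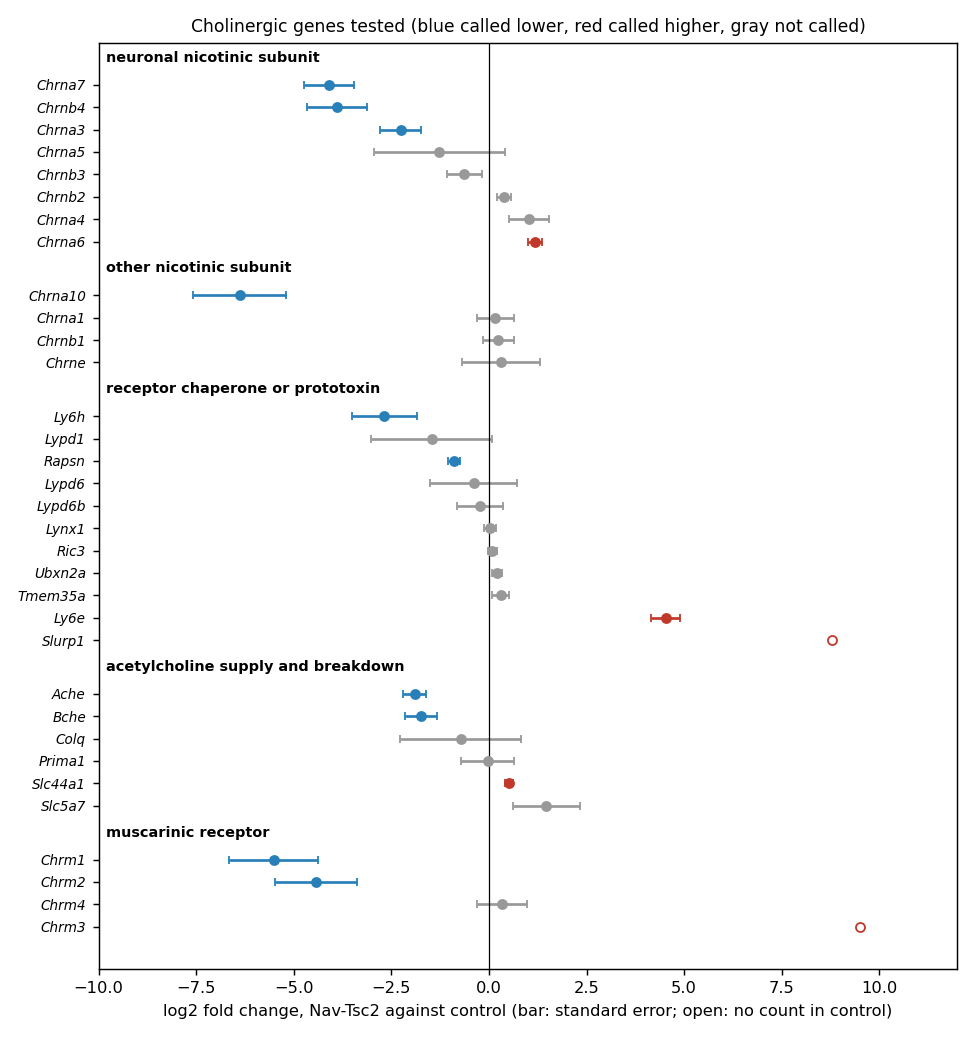
Log2 fold change (Nav-Tsc2 against control) with its SE for the tested genes of 5 cholinergic lists; blue points were called lower, red higher and gray not called. Open points are genes without any control count, whose fitted value is no measure of size. Of the neuronal subunits Chrna7, Chrnb4 and Chrna3 are blue and Chrna6 is red.

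Of 12 genes for proteins that assemble, traffic or modulate nicotinic receptors, 11 were tested. Of these, 2 were called lower and 2 higher, against 8.00% and 9.12% of all genes tested, and the median log2FC was 0.03. The chaperones Ric3, which promotes assembly of α7, and Tmem35a (NACHO) had 36.3 ± 4.56 and 41.2 ± 14.1 CPM in control and 38.5 ± 2.19 and 50.7 ± 4.43 CPM in Nav-Tsc2 mice (SD, n = 4 mice per genotype), with log2FC of 0.09 and 0.30 (edgeR adjusted p = 0.658 and 0.359). Without control replicate 3 Tmem35a was called higher (log2FC 0.55, adjusted p = 0.0244). Lynx1, a membrane-anchored prototoxin that lowers receptor sensitivity, had 123.7 to 179.8 CPM in control and 134.2 to 203 CPM in Nav-Tsc2 mice and a log2FC of 0.03 (edgeR adjusted p = 0.914).

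The largest level among these genes in Nav-Tsc2 mice was that of Ly6e, a member of the same Ly6 family. It had 17.2, 9.51, 4.30 and 7.67 CPM in control and 223, 214, 245 and 209 CPM in Nav-Tsc2 replicates 1 to 4. Ly6e rose by 4.52 on the log2 scale (SE 0.37, edgeR adjusted p = 8.38e-05). Slurp1, a secreted Ly6 protein that binds nicotinic receptors, had no count in the control mice and 68, 14, 56 and 85 counts in Nav-Tsc2 replicates 1 to 4. Its mean of 1.00 ± 0.555 CPM (SD, n = 4 mice) was 72.3-fold a floor of 3 counts over the control group (edgeR adjusted p = 0.00364). This floor takes no account of amplification or of the spread between libraries, so it does not bound the true ratio. Of the Slurp1 exon sequence, 11.0% is shared with Them6 on the other strand.

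Rapsn, which clusters receptors at the muscle endplate, had 16.4, 16.3, 12.9 and 17.8 CPM in control and 8.76, 8.95, 7.64 and 8.48 CPM in Nav-Tsc2 replicates 1 to 4. It fell by 0.91 on the log2 scale (edgeR adjusted p = 0.00335). Ly6h, which limits α7 at the cell surface, averaged 3.91 ± 1.499 CPM in control and 0.603 ± 0.544 CPM in Nav-Tsc2 mice (SD, n = 4 mice per genotype), a log2FC of -2.69 (edgeR adjusted p = 0.0465). This call was lost with the replicate block (adjusted p = 0.0866) and in 5 of the fits that left out a mouse (controls 1, 2 and 4, Nav-Tsc2 mice 2 and 3), with adjusted p of 0.0599 to 0.121 (edgeR).

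Among 8 genes of acetylcholine supply and breakdown, 6 were tested. Of these, 2 were called lower and 1 higher, against 8.00% and 9.12% of all genes tested (median log2FC of the list -0.38). Both enzymes that hydrolyze acetylcholine were lower. Acetylcholinesterase, Ache, had 46.4, 28.6, 22.5 and 57.9 CPM in control and 9.48, 10.1, 8.92 and 13.2 CPM in Nav-Tsc2 replicates 1 to 4, without overlap (log2FC -1.90, edgeR adjusted p = 0.00189). Butyrylcholinesterase, Bche, had 21.0, 22.1, 8.36 and 11.2 CPM in control and 3.29, 4.16, 3.18 and 7.97 CPM in Nav-Tsc2 mice (log2FC -1.75, edgeR adjusted p = 0.0141).

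Synthesis and vesicular loading were near the limit of detection. Chat, choline acetyltransferase, had 20 counts in control replicate 2 and 0 in the other 7 mice, and Slc18a3, the vesicular acetylcholine transporter, had 1 count in all. The high-affinity choline transporter gene Slc5a7 had 4.97, 0.0379, 2.60 and 4.94 CPM in control and 12.1, 9.25, 8.12 and 5.32 CPM in Nav-Tsc2 replicates 1 to 4; the groups did not overlap, but the test was not passed (log2FC 1.47, edgeR adjusted p = 0.265). It was called higher in both fits of single libraries (log2FC up to 3.63, limma). Slc44a1, a choline transporter used in membrane synthesis, rose from 110.2 ± 14.9 to 156.5 ± 4.25 CPM (SD, n = 4 mice per genotype). Its log2FC of 0.51 (edgeR adjusted p = 0.00675) was just past the threshold, and 8 of 16 other fits put it between 0.46 and 0.50: DESeq2, DESeq2 size factors, libraries weighted equally, and those that left out control 1, 2 or 4 or Nav-Tsc2 mouse 2 or 4.

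Muscarinic receptors, the G protein-coupled receptors for acetylcholine, changed in both directions. Of 5 genes 4 were tested. Of these, 2 were called lower and 1 higher, against 8.00% and 9.12% of all genes tested (median log2FC of the list -2.05). Chrm2, which couples to inhibitory G proteins, had 11.8, 10.8, 10.4 and 10.2 CPM in control and 0.432, 0, 0.0490 and 1.51 CPM in Nav-Tsc2 replicates 1 to 4. It fell by 4.43 on the log2 scale (edgeR adjusted p = 0.0156), and the call was lost without Nav-Tsc2 replicate 1 (adjusted p = 0.0536). Chrm1 had 5.44, 5.68, 3.29 and 0.241 CPM in control and 0.185, 0, 0.0490 and 0.0846 CPM in Nav-Tsc2 mice (log2FC -5.51, edgeR adjusted p = 0.00820). Chrm3 had no count in control mice and 112, 77, 47 and 125 counts in Nav-Tsc2 mice (edgeR adjusted p = 0.00130). The Nav-Tsc2 mean of 1.64 ± 0.708 CPM (SD, n = 4 mice) was 118-fold a floor of 3 counts over the control group. That floor takes no account of amplification and does not bound the true ratio.

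Markers of cell types differed between the genotypes beside these genes. The background for the counts called in each marker list, here and below, was 8.00% of all genes tested for lower and 9.12% for higher. Of 10 nociceptor and neuron markers 3 were called lower (Snap25, Rbfox3 and Isl1) and 1 higher (Prph). Their summed level was 15320 to 18550 CPM in control and 16260 to 18730 CPM in Nav-Tsc2 mice. Of 7 peptidergic nociceptor markers 3 were called lower and 1 higher, and their summed level was 9763 to 20100 CPM in control and 5154 to 8507 CPM in Nav-Tsc2 mice; Calca and Kit were among the lower ones, with log2FC of -1.99 and -2.74, and Gal was higher. Of 7 itch neuron markers 4 were called lower and 1 higher, with a summed level of 116 to 546 CPM in control and 1306 to 3210 CPM in Nav-Tsc2 mice. Most of that sum in Nav-Tsc2 mice was Nts, the neurotensin gene (means of 72.5 and 2012 CPM), whereas Nppb, Sst, Il31ra and Mrgpra3 were the lower ones. None of the 7 nonpeptidergic markers was called, at a summed 593 to 1752 and 1565 to 1777 CPM. For low-threshold C-fibers, 1 of the 3 markers tested was called, Th, which was higher, at a summed 32.4 to 201 and 100.6 to 1324 CPM. Their part in the nicotinic results was not tested.

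Markers of sympathetic neurons, which also express Chrna3 and Chrnb4, were at unequal levels. Of the 6 sympathetic markers 2 were tested and none was called, with a summed level of 70.7 to 72.5 CPM in control and 60.3 to 73.3 CPM in Nav-Tsc2 mice, most of it Slc18a2 (means of 71.4 and 62.7 CPM). Hand2, Phox2a and Gata3 had 2, 3 and 4 counts in the control mice together and 1, 11 and 101 in the Nav-Tsc2 mice. Dbh averaged 0.458 ± 0.447 CPM in control and 3.66 ± 1.499 CPM in Nav-Tsc2 mice (SD, n = 4 mice per genotype), a log2FC of 2.98 (edgeR adjusted p = 0.0557). The part of sympathetic neurons in the Chrna3 and Chrnb4 results was not tested.

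Non-neuronal markers were present at different levels. Of 10 satellite and Schwann cell markers 1, S100b, was called and was lower, with a summed level of 2981 to 3110 CPM in control and 1962 to 2542 CPM in Nav-Tsc2 mice. Of 5 macrophage markers tested 1 was called higher (summed 1.77 to 6.33 and 7.76 to 19.4 CPM), and the 3 endothelial markers tested were all called higher (0.326 to 1.85 and 7.72 to 20.1 CPM), while of the endothelial markers not tested Pecam1 had 85 control and 71 Nav-Tsc2 counts, Cdh5 had 12 and 27, and Cldn5 had 3 and 5. No fibroblast marker was called of 6 tested, nor the 1 skeletal muscle marker tested, Acta1, and the summed level of the muscle list was 3.39 to 6.08 CPM in control and 3.08 to 7.09 CPM in Nav-Tsc2 mice. The fibroblast list summed to 73.1 to 236 and 121 to 196 CPM. Whether these cells added to the receptor counts was not tested.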

How the data were processed

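The 9 members, the gene lists, the tests and the alternatives were chosen with earlier results of these data known. The deposited count values were made by the authors, who checked reads with FastQC, aligned them to mm10 with STAR and ran HTSeq-count; no scaling had been applied; the strand setting is not given in the sources used here. The 3 libraries of a mouse were summed here, which made each mouse 1 replicate. Genes were filtered with filterByExpr, scaled by TMM and compared with edgeR 4.0.16 in R 4.3.3; limma 3.58.1 and DESeq2 1.42.0 served as alternatives. The SE is |log2FC| over the root of F. Benjamini-Hochberg adjustment ran over 17178 genes. The fit of single libraries (limma) had mouse as random effect. Identifiers were matched without their version: 47224 of 47643 rows had a symbol, and 115 of 116 list genes a row. Exon lengths and overlaps are from GENCODE M21. The test was tried on simulated counts. The deposited table of the authors' own comparison, which holds their fold changes and p-values, was not used.

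The genes named are the members, Tsc2, the called genes of the cholinergic lists, the neighbors of both clusters (2 on each side), and for 7 members the 2 genes with the highest r over libraries. Genes of the lists that were not called, and the markers named, were added after their values were seen. The main test compared the genotypes without pairing, and equal replicate numbers were used as pairs only in an alternative fit, the replicate block. For mice of equal number, deviations from the genotype mean on edgeR's log-CPM scale correlated at 0.184, 0.185, 0.108 and 0.199 (replicates 1 to 4, 8445 genes). On log2(CPM + 1) they were 0.0187 to 0.108. Equal numbers also share the sex. On the log-CPM scale, mice of the same sex with unequal numbers correlated at 0.198, 0.0627, 0.110 and 0.185, and mice of opposite sex at -0.251 to -0.0826. Equal and unequal numbers within a sex thus had overlapping values, and whether the numbers pair the mice beyond sex was not tested. Values of 2 marker genes are not reported here.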

Additional observations from a re-analysis of the deposited data

Results flagged for a closer look

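In groups of 4 mice, 7 of 75 had 1 mouse far from the other 3. For normally distributed values the rule would flag 1 in 20, or 3.75. Some of the genes flagged had few counts or 0 in the other mice, so that rate need not hold and no excess is read from it. For the members, Chrna5 had 1.72 CPM in control replicate 3 against 0 to 0.0757 CPM in the other control mice, and Chrna9 had 0.206 CPM in Nav-Tsc2 replicate 1 and 0 in the others. Chrnb4 had 0.0653 CPM in Nav-Tsc2 replicate 3, below the 2.65 to 3.17 CPM of the other Nav-Tsc2 mice. Chrna10 had 0.163 CPM in Nav-Tsc2 replicate 3 and at most 0.0177 CPM in the others. Slc44a1 had 132.3 CPM in control replicate 3 and Mcam 50.0 CPM in control replicate 4, both above the other control mice. Poteg had 0.0543 CPM, from 3 counts, in control replicate 3 and 0 in the other control mice.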

How the results depend on the processing

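Of 125 values of the 8 tested members under the alternatives, 115 kept their direction and their side of the threshold. The number of members called lower was 3 in the main test; it was 0 in the fit of single libraries, where Chrna7 was not tested, and 1 (Chrna7) in the same fit on the genes kept per mouse, which was chosen after seeing the data and in which all genes had a median log2FC of 0.14. In that fit Chrna3 had -0.69, Chrnb4 -4.02, Chrna5 0.56 and Chrnb3 0.71; in the fit of single libraries on its own gene filter Chrnb3 had 0.73. Leaving out 1 mouse at a time gave 2 to 3 members lower and 1 higher each time. With the replicate block, 3 members were lower and 1 higher, as in the main test, and Chrna5 had 1.19. Among the members, the cholinergic lists and the cluster neighbors, the block ended no call other than those of Ly6h and Poteg. Of all genes tested, 1374 were lower and 1567 higher in the main test (17178 genes). The replicate block gave 1116 and 1329 (17178 genes), and the fit of single libraries 1253 and 2207 (13880 genes). On the genes kept per mouse, the fit of single libraries gave 1339 and 2705 (17178 genes). Leaving out 1 mouse gave 995 to 1577 lower and 1150 to 1925 higher (17714 to 17933 genes). Leaving out 1 mouse gave Chrna5 a log2FC of -1.692 to 2.76, the highest without control replicate 3. The genotype-by-sex interaction gave 0 members in the main test, where 1 of 17178 genes was called. It gave 2 members without the low-count filter, where 618 of 30194 genes were called. AY074887, near 0.2 CPM, had 0.00998 with sex as a covariate, 0.052 in the added fit and -0.3085 to 0.1245 when 1 mouse was left out. The causes of these changes were not tested. Chrna5 and Chrna9 had counts in few libraries, so little can be said of either.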
